A study of Danio rerio with 2 samples.

Results

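Claudins are the membrane proteins that form the strands of tight junctions, and the intestinal cells of adult zebrafish were examined here for which members of the family each cell class expressed. The members are the genes whose symbol begins with cldn in the deposited gene list, without the 2 copies of cldnd1, which belongs to another family. This gave 32 claudin genes of 25432 genes, each with its own identifier. The single-cell series compared fish without functional nod2, an intracellular receptor for bacterial cell wall fragments, with wild-type (WT) siblings. The nod2-/- library came from 5 cohoused nod2-/- fish that carry a frameshift deletion made with CRISPR, and the WT library came from 5 cohoused wild-type fish of the TL strain. All were siblings from an in-cross of heterozygous fish and were 6 months old, each group held males and females in the same ratio, and whole intestines were pooled and dissociated. The mutation was carried in every cell, so no comparison isolates nod2 in the epithelium alone, and 3′ UMIs do not read the deletion and cannot check the genotype.

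Claudins cross the membrane several times and join to claudins of the neighboring cell, which closes the space between cells or, for some members, forms a pore that lets selected ions through. The mixture of members in a cell therefore sets how leaky its junctions are. In mammals, claudin 15 and claudin 2 are pore-forming claudins of the gut, claudin 5 seals the endothelium of the brain, claudin 1 seals the skin, and claudin 18 is a claudin of stomach and lung. Bony fish have many more claudin genes than mammals, and several zebrafish members still carry letter names that do not say which mammalian claudin is their closest relative.

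The nod2-/- library holds 5599 cells with 22244173 UMIs (unique molecular identifiers, each of which marks 1 captured transcript) and the WT library holds 5891 cells with 34052268 UMIs, with medians of 1940 and 3400 UMIs a cell. Clusters were computed without the claudins among the variable genes and were grouped into 20 classes, named from marker genes or, where the markers did not decide, by a pair of leading genes. There is 1 library for each genotype, made from pooled fish, so no difference between genotypes has a replicate check and no p-value is given. The unit is CPM, the UMIs of a gene in a class and library divided by all UMIs there and scaled to 1000000, with exact Poisson 95% intervals. Log2 ratios are those of nod2-/- over WT CPM with exact conditional 95% intervals. All intervals cover counting error only, and neither variation among fish nor among cells. UMIs are counted at the 3′ ends of transcripts and were not scaled by gene length. Levels in leukocytes, which form no epithelial junctions, are given beside epithelial claudins as a measure of free RNA.

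Of the 32 claudins, 6 had at least 1000 UMIs over both libraries and together held 93.3% of the 48654 claudin UMIs. These were cldn15la (ENSDARG00000016081, 49.1% of all claudin UMIs), cldn15a (ENSDARG00000112049, 14.9%), cldn15lb (ENSDARG00000100844, 9.80%), cldnc (ENSDARG00000015955, 8.34%), cldn15b (ENSDARG00000101109, 6.43%) and cldnh (ENSDARG00000069503, 4.72%). All 4 genes of the claudin 15 group were thus among these 6, with cldnc ahead of cldn15b. A further 7 members had between 100 and 1000 UMIs, namely cldn12 (758), cldnb (565), cldni (529), cldn23b (465), cldn7b (234), cldnk (233) and cldn17 (171). Another 6 had between 20 and 99 UMIs, namely cldn11b, cldn5b, cldne, cldn11a, cldn5a and cldn23a. The other 13 were under 20 UMIs, of which cldng (14), cldn10b (13), cldn7a (12), cldn19 (11), cldn1 (9), cldna (9), cldn2 (5), cldnd (4), cldn10l2 (3), cldnj (2) and cldnf (1) were detected. Both cldn10a and cldn18 had 0 UMIs, and a count of 0 allows up to 3 UMIs in each library at this depth. Zebrafish have no stomach, the organ in which claudin 18 is best known in mammals.

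cldn15la was the most abundant claudin of nearly every epithelial class. In the nod2-/- library it was at 309.9 CPM in enterocytes, 459.8 in lysosome-rich enterocytes, 750.1 in BEST4 cells, 655.5 in goblet cells, 540.3 in progenitors, 690.1 in cycling cells and 1285 in enteroendocrine cells. In the WT library it was at 372 CPM in enterocytes, 432 in lysosome-rich enterocytes, 857 in BEST4 cells, 812 in goblet cells, 604 in progenitors, 591.5 in cycling cells and 1091 in enteroendocrine cells. Enteroendocrine cells, the hormone-secreting cells of the epithelium, had the highest level in each library, and absorptive enterocytes the lowest of these 7 classes. Leukocytes had 28.4 CPM in the nod2-/- library and 29.8 CPM in the WT library.

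Among the smaller classes the level of cldn15la split. Cells marked by pou2f3 and alox5a, both known from tuft cells, had 729.9 CPM in the nod2-/- library and 968.5 CPM in WT. This class did not meet the marker rule for tuft cells, and trpm5, another marker on the tuft list, had 0 UMIs there in each library. Cells marked by cuzd1.1 and spink4 had 512 CPM in nod2-/- and 781 CPM in WT. Cells marked by chia.6 and thy1 had 879 CPM in nod2-/- and 868 CPM in WT, but this class held only 9 nod2-/- and 22 WT cells. Its best-matching marker list was that of leukocytes, with 5 markers but none among its leading genes. The leukocyte marker coro1a was at 160 CPM in nod2-/- and 240 CPM in WT there, against 472 and 477 CPM in leukocytes. Whether these cells hold RNA of more than 1 cell was not tested. A keratin-rich epithelium with krt91, krt15 and cnfn had 158 CPM in nod2-/- and 191 CPM in WT. In cells marked by zgc:193726 and the chloride channel gene cftr, cldn15la was at 14.9 CPM (1 UMI) in nod2-/- and 33.3 CPM (7 UMIs) in WT, close to the level in leukocytes.

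The other members of the claudin 15 group had patterns of their own. cldn15a was highest in the zgc:193726/cftr cells, with 832 CPM (95% interval 628 to 1080.1) in nod2-/- and 1138 CPM (998 to 1291) in WT, and the next class had 170.2 CPM in nod2-/- (BEST4 cells) and 221 CPM in WT (lysosome-rich enterocytes). In nod2-/- it was at 108 CPM in enterocytes, 148 in lysosome-rich enterocytes, 107 in progenitors, 165 in cycling cells, 143 in cuzd1.1/spink4 cells, 77.6 in goblet cells and 52.1 in enteroendocrine cells. In WT it was at 117 CPM in enterocytes, 221 in lysosome-rich enterocytes, 144 in progenitors, 220.2 in cycling cells, 119 in goblet cells, 199 in BEST4 cells and 75.4 in enteroendocrine cells. The keratin-rich cells, at 3.76 CPM in nod2-/- and 4.99 CPM in WT, had no more cldn15a than leukocytes, at 5.17 and 6.51 CPM.

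cldn15lb was spread more evenly. In the nod2-/- library it was at 44.7 CPM in enterocytes, 114 in lysosome-rich enterocytes, 75.3 in BEST4 cells, 86.7 in goblet cells, 85.3 in progenitors, 163 in cycling cells, 81.8 in enteroendocrine cells and 79.0 in keratin-rich cells. In WT it was at 73.2 CPM in enterocytes, 152 in lysosome-rich enterocytes, 104 in BEST4 cells, 186 in goblet cells, 122 in progenitors, 138 in cycling cells, 101 in enteroendocrine cells and 133 in keratin-rich cells. No class in the comparison stood apart for this gene, except that the few chia.6/thy1 cells had 213 CPM in nod2-/- and 443 CPM in WT.

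cldn15b was highest in the lysosome-rich enterocytes, the posterior absorptive cells that take up whole proteins by endocytosis. It was at 193 CPM (179 to 207) in nod2-/- and 133 CPM (123 to 143) in WT, against 32.9 CPM in nod2-/- and 44.0 CPM in WT enterocytes. Cycling cells came next, with 80.5 CPM in nod2-/- and 71.7 CPM in WT. Their cluster had fabp6, a marker of lysosome-rich enterocytes, among its leading genes. The leukocyte marker coro1a was at 54.3 CPM in nod2-/- and 74.3 CPM in WT there, and the mix of cell types in this class was not tested. cldn15b was at 40.2 CPM in nod2-/- and 60.2 CPM in WT BEST4 cells, 24.3 and 25.5 CPM in goblet cells, 26.6 and 22.4 CPM in progenitors and 19.8 and 27.6 CPM in enteroendocrine cells. No cldn15b UMI was seen in the zgc:193726/cftr or the pou2f3/alox5a cells of either library. In the zgc:193726/cftr cells the upper end of the exact Poisson interval for 0 UMIs was 54.8 CPM in nod2-/- and 17.6 CPM in WT, and the floor of 3 UMIs was 44.6 and 14.3 CPM.

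**Figure D1:**
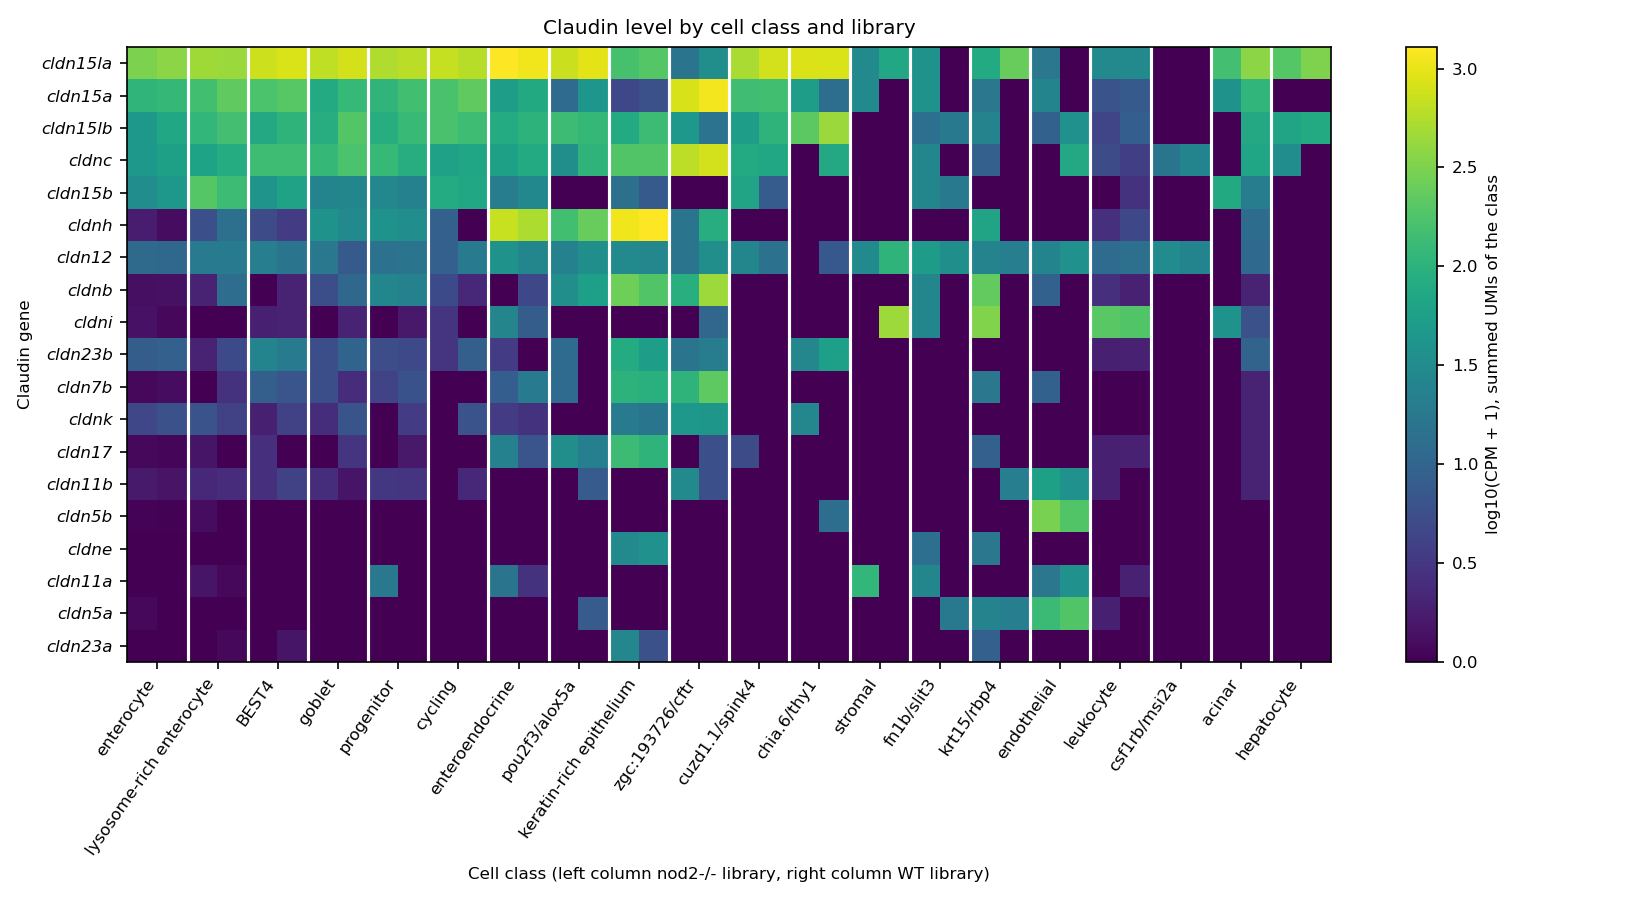
Level of the 19 claudins with at least 20 UMIs (rows, most UMIs at the top) in 20 cell classes (columns), as log10(CPM + 1) of summed UMIs, with the nod2-/- library left and the WT library right in each pair of columns. cldn15la is bright across the epithelium except in keratin-rich and zgc:193726/cftr cells, cldnh in enteroendocrine and keratin-rich cells, cldn5a and cldn5b in endothelial cells and cldni in leukocytes.

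Within the absorptive cells the same genes varied among clusters. Enterocytes fell into clusters 0 to 4 and lysosome-rich enterocytes into clusters 5 and 8. In nod2-/- cells cldn15b was at 43.2, 50.04, 4.71, 13.4 and 36.2 CPM in clusters 0 to 4, then at 141 CPM in cluster 5 and 306 CPM in cluster 8. In WT cells it was at 62.3, 81.2, 3.91, 6.77 and 35.4 CPM in clusters 0 to 4, then at 99.7 CPM in cluster 5 and 212 CPM in cluster 8. Cluster 2, led by the apolipoprotein gene apoa4a and the phosphatase gene alpi.2, thus had little cldn15b, while cluster 8, led by the lysosomal protease gene ctsl.1, had most. The same cluster 2 had cldn15la at 346 CPM in nod2-/- and 489 CPM in WT, the highest level among the 5 enterocyte clusters of each library. cldn15la itself did not separate clusters 5 and 8, with 459 and 461 CPM in nod2-/- and 430.3 and 435 CPM in WT. cldn15lb was higher in cluster 8, with 85.3 CPM in cluster 5 and 175 CPM in cluster 8 of nod2-/- and 138 and 186 CPM in WT.

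**Figure D2:**
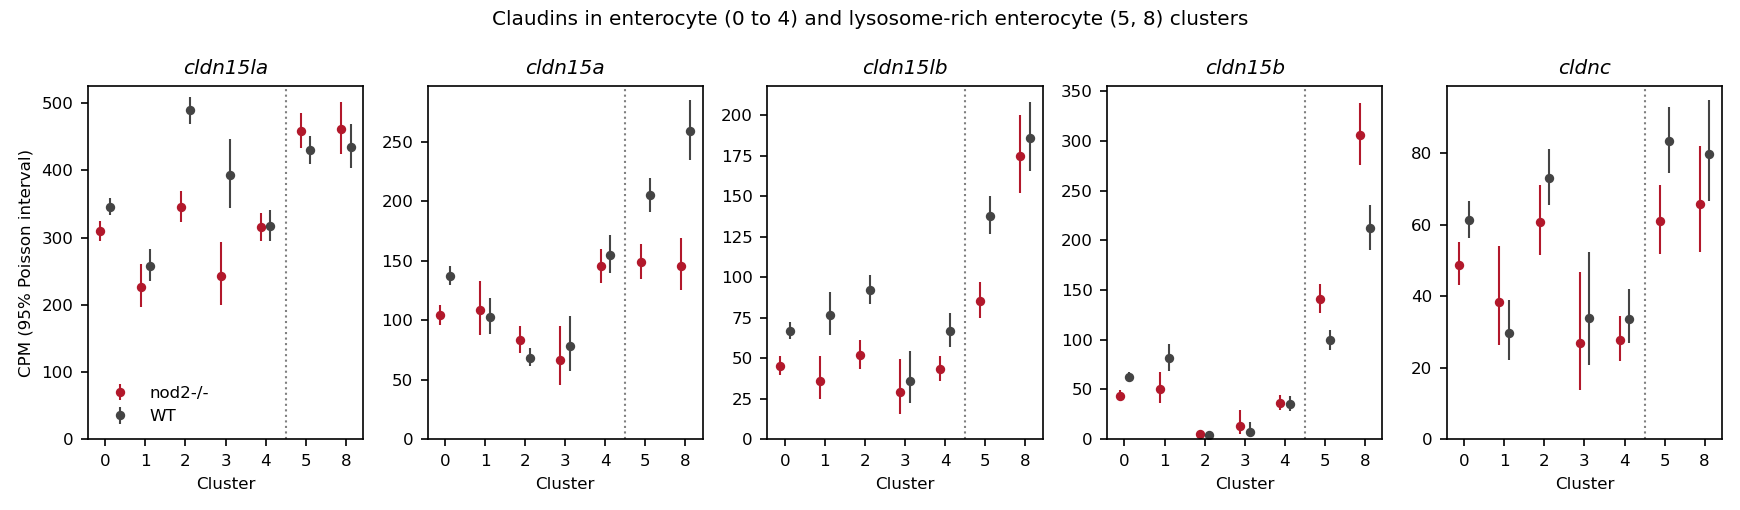
CPM (y axis, each panel from 0, with 95% Poisson intervals) of 5 claudins in enterocyte clusters 0 to 4 and lysosome-rich enterocyte clusters 5 and 8 (x axis, divided by the dotted line), with nod2-/- in red left of WT in grey. cldn15b runs from 4.71 CPM in cluster 2 to 306 CPM in cluster 8 of the nod2-/- library.

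Among the 14 classes with at least 20 cells in each library, cldnh was highest in keratin-rich cells and next in enteroendocrine cells. Enteroendocrine cells had cldnh at 707 CPM (627 to 794) in nod2-/- and 533 CPM (474 to 598) in WT, below cldn15la in each library. In keratin-rich cells cldnh was at 1089 CPM (1002 to 1181) in nod2-/- and 1270 CPM (1181 to 1363) in WT. Enterocytes had 0.74 CPM in nod2-/- and 0.28 CPM in WT. Between these extremes, pou2f3/alox5a cells had 146 CPM in nod2-/- and 242 CPM in WT, goblet cells 38.02 and 29.5 CPM, and progenitors 37.6 and 32.6 CPM. Leukocytes had 1.72 CPM in nod2-/- and 3.72 CPM in WT, and BEST4 cells 4.28 and 2.55 CPM. Enterocytes were thus below leukocytes for cldnh in each library, and BEST4 cells were above them in nod2-/- and below them in WT. Lysosome-rich enterocytes had 4.69 CPM in nod2-/-, near BEST4 cells, and 12.96 CPM in WT. Of the 569 WT lysosome-rich enterocytes, 23 had a cldnh UMI, and 1 of them held 17.

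After every cell was thinned to 500 UMIs, 35.8% (28.5 to 43.6, Clopper-Pearson) of nod2-/- enteroendocrine cells and 30.8% (22.6 to 39.97) of WT enteroendocrine cells had a cldnh UMI, against 0.184% and 0.125% of leukocytes. Without thinning these shares were 68.5% of 165 nod2-/- cells and 72.6% of 117 WT cells. Nearly all of the cells with cldnh also had cldn15la, namely 101 of 113 in nod2-/- (89.4%) and 80 of 85 in WT (94.1%). This was close to the share among all enteroendocrine cells, of which 88.5% in nod2-/- and 92.3% in WT had cldn15la. The endocrine cells divided into cluster 15, led by the peptide genes insl5a and pyyb, with cldnh at 528 CPM in nod2-/- and 386 CPM in WT, and cluster 22, led by adcyap1a and penka, with 1235 CPM in nod2-/- and 1091 CPM in WT. The adcyap1a/penka cluster therefore had more cldnh in each library, while cldn15la was at 1285 and 1284 CPM in clusters 15 and 22 of nod2-/- and at 1139 and 906 CPM in those of WT. cldnh stood among the 10 leading genes of cluster 22 and of the keratin-rich cluster, although claudins had been kept out of the clustering.

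The keratin-rich epithelium (51 nod2-/- and 34 WT cells) had 10 claudins with at least 20 UMIs, as many as the lysosome-rich enterocytes. Beside cldnh it had cldnb, a gene known from zebrafish skin and lateral line, at 263 CPM (222 to 311) in nod2-/- and 183 CPM (150.3 to 220.3) in WT, and cldnc at 184 CPM in nod2-/- and 184 CPM in WT. cldn17, which RefSeq lists as cldn8.3, was at 135 CPM in nod2-/- and 103 CPM in WT, and cldn7b at 102 CPM in nod2-/- and 93.1 CPM in WT. cldn23b was at 80.9 CPM in nod2-/- and 54.8 CPM in WT, cldne at 30.1 and 36.6 CPM, and cldn23a at 26.3 and 4.99 CPM. All 25 WT cells and all 41 nod2-/- cells of this class with a cldnb UMI also had cldnh, which was found in 97.1% of all WT and 98.0% of all nod2-/- cells of the class. For 5 of the 19 claudins with at least 20 UMIs this was the highest of the 14 classes with at least 20 cells in each library, in both libraries (cldn17, cldn23a, cldn23b, cldne and cldnh), against 1.44% of the 17435 genes with at least 20 UMIs. Of these 5, cldn23a (20 UMIs in all cells) and cldne (41 UMIs) reached the limit of 20 UMIs only with their UMIs of this class. Their place in the count therefore follows from that limit, which leaves cldn17, cldn23b and cldnh.

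The zgc:193726/cftr cells (33 in nod2-/- and 40 in WT) had few UMIs of cldn15la and no cldn15b, with cldn15lb at 44.6 CPM (3 UMIs) in nod2-/- and 14.3 CPM (3 UMIs) in WT. Beside cldn15a they had cldnc at 624 CPM (450 to 843) in nod2-/- and 781 CPM (666 to 910) in WT, against 184 CPM in the keratin-rich cells of each library. After thinning, 24.2% of nod2-/- and 27.5% of WT cells had a cldnc UMI. Of the cells with cldnc, 12 of 18 in nod2-/- and 28 of 31 in WT also had cldn15a, which was found in 57.6% of all nod2-/- and 90% of all WT cells of the class. cldn7b was at 104 CPM in nod2-/- and 214 CPM in WT, cldnb at 89.1 and 447 CPM, and cldnk, best known from myelinating glia of zebrafish, at 44.6 CPM (3 UMIs) and 42.8 CPM (9 UMIs). All 12 acinar markers on the list had UMIs in these cells over both libraries (11 of them in each), summing to 2228 CPM in nod2-/- and 1228 CPM in WT, against 23664 and 54592 CPM in the acinar class, and their part in the claudin values was not tested.

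Summed over all 32 members, claudins took 2317 CPM (2170.3 to 2470.0) of nod2-/- and 1975 CPM (1859 to 2097) of WT enteroendocrine cells, 2213 and 2307 CPM of keratin-rich cells, and 1827 and 2828 CPM of zgc:193726/cftr cells. Among the epithelial classes with at least 20 cells in each library, enterocytes were lowest, with 566 CPM (552.5 to 579) in nod2-/- and 688 CPM (676 to 699.8) in WT. Lysosome-rich enterocytes had 1009 CPM in nod2-/- and 1075 CPM in WT. Classes that share a claudin level could still differ in the mixture. cldn15la made up 54.8% of the claudin UMIs in nod2-/- and 54.1% in WT enterocytes, 55.5% and 55.2% in enteroendocrine cells, and 7.14% and 8.29% in keratin-rich cells. cldnh made up 30.5% and 27.0% in enteroendocrine cells and 49.2% and 55.04% in keratin-rich cells, while cldn15a and cldnc made up 45.5% and 34.1% in nod2-/- and 40.2% and 27.6% in WT zgc:193726/cftr cells.

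**Figure D3:**
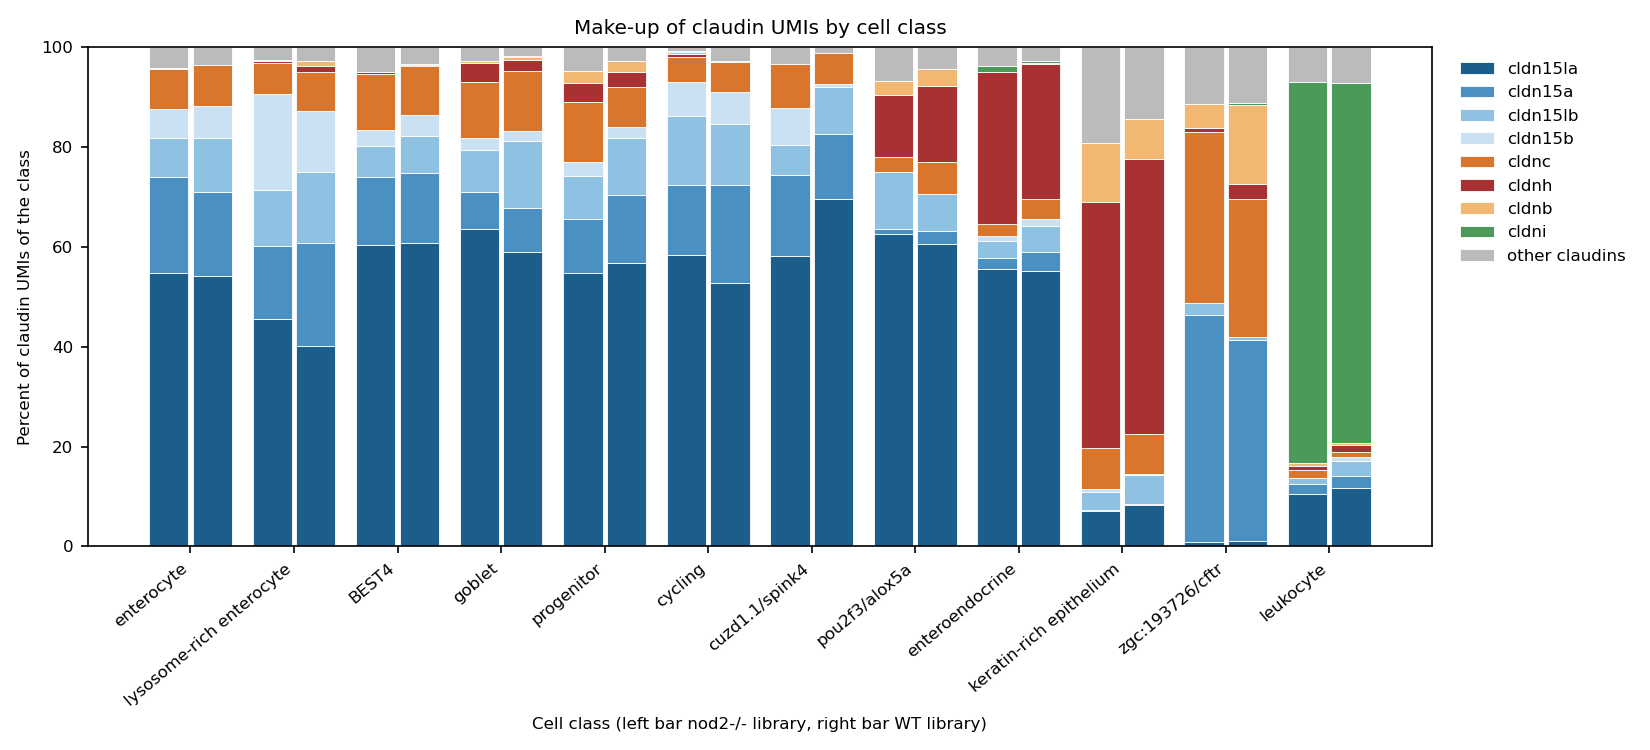
Share of the claudin UMIs of each class (y axis, percent) held by 8 claudins and by all others, with the nod2-/- bar left of the WT bar. Blue shades are the claudin 15 group, which fills most of the bar in 9 classes and little of it in keratin-rich cells and leukocytes, while in zgc:193726/cftr cells nearly all of the blue is cldn15a.

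A gene was called concentrated where its CPM in a class was at least 4 times that of the next class in both libraries, over the 14 classes with at least 20 cells in each library. This held for 3 of the 19 claudins, namely cldn17 and cldn23a in keratin-rich cells and cldn15a in zgc:193726/cftr cells, against 5.95% of the 17435 genes with at least 20 UMIs. cldn23a had 20 UMIs in all cells, 5 of them in WT. It entered the count only with its UMIs of the keratin-rich cells, so its call follows from the limit of 20 UMIs. cldnc just missed the limit, with 3.39 times the next class in nod2-/- and 4.23 times in WT. cldn17 was just inside it, at 4.02 times in nod2-/- and 4.97 times in WT, where the next class (pou2f3/alox5a) held 3 UMIs in each library. Under the cell filter worded in the study's methods, which keeps cells of 200 to 2500 UMIs, 1 claudin met the limit. Most of the 19 claudins thus fell short of the limit among these classes. Endothelial cells, with only 14 WT cells, are not among them. cldn5a and cldn5b, found mostly in endothelial cells, could therefore not be called for that class, and their failure here does not mean that they were shared. Of the 19 claudins, 11 had the same highest class in both libraries, against 39.1% of the 17435 genes. Beside the 5 in keratin-rich and 4 in zgc:193726/cftr cells, these were cldn15la in enteroendocrine cells and cldn15b in lysosome-rich enterocytes, the highest classes of 3.46% and 2.61% of all genes. Of the 11, cldn23a and cldne again follow from the limit of 20 UMIs.

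cldn12 was found in epithelial cells and leukocytes alike. It was at 11.04 CPM in nod2-/- and 9.92 CPM in WT enterocytes, 17.4 and 18.6 CPM in lysosome-rich enterocytes, 20.5 and 14.8 CPM in BEST4 cells, 30.1 and 26.6 CPM in keratin-rich cells and 11.2 and 13.03 CPM in leukocytes. It was at 37.2 CPM in nod2-/- and 25.75 CPM in WT enteroendocrine cells and at 16.7 and 6.50 CPM in goblet cells, and its highest values among the 14 classes, 50.8 CPM in nod2-/- fn1b/slit3 cells and 103.9 CPM in WT stromal cells, rest on 4 and 3 UMIs. cldn12 was thus about as high in leukocytes as in enterocytes, unlike the claudin 15 group. cldn23b was at 7.33 CPM in nod2-/- and 7.88 CPM in WT enterocytes and at 23.9 and 18.9 CPM in BEST4 cells, and cldnk at 3.63 and 4.96 CPM in enterocytes.

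Several members are neighbors in the genome. In the RefSeq annotation of assembly GRCz12tu, which was used for names and neighbors only, 31 members were matched, and 13 had another claudin among the nearest 4 genes. There 12 members overlapped another gene. Among them were cldn15b (with naa38), cldn12 (with adam22), cldn7b (with nlgn2b), cldn17 (with cldn8.2 and cldn8.1) and cldni (with coro1a). Whether reads of such overlapping genes can be told apart is not known for these counts. cldnh (cldn3c in RefSeq), cldnc (cldn3d) and cldnb lie in 1 run of neighboring genes with cldnd. Their levels nevertheless differed by class. In keratin-rich cells cldnh was at 1089 CPM in nod2-/- and 1270 CPM in WT and cldnc at 184 CPM in each library, whereas in zgc:193726/cftr cells cldnh was at 14.9 CPM in nod2-/- and 85.7 CPM in WT and cldnc at 624 and 781 CPM. In enteroendocrine cells cldnh was at 707 and 533 CPM, cldnc at 57.0 and 79.1 CPM and cldnb at 0 and 3.68 CPM. The neighbor cldnd had 0 UMIs in nod2-/- and 4 UMIs in WT cells. The genes cldnj, cldne, cldnf and cldna are likewise neighbors, and had 2, 19, 1 and 9 UMIs in nod2-/- and 0, 22, 0 and 0 UMIs in WT.

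Endothelial cells (60 in nod2-/- and 14 in WT) had UMIs of all 18 endothelial markers over both libraries (17 of them in each), and carried both zebrafish copies of claudin 5. cldn5b was at 301 CPM (37 UMIs, 212 to 415) in nod2-/- and 185 CPM (5 UMIs, 59.9 to 431) in WT, and cldn5a at 130.2 CPM (16 UMIs, 74.4 to 211.5) in nod2-/- and 185 CPM (5 UMIs, 59.9 to 431) in WT. The intervals of the libraries overlap for both genes. These cells held 37 of the 39 cldn5b UMIs of the nod2-/- library and 5 of the 8 of WT, and 16 of the 22 cldn5a UMIs of nod2-/- and 5 of the 8 of WT. Of the 60 nod2-/- cells, 15 had cldn5b, 11 had cldn5a and 4 had both. cldn11b added 57.0 CPM (7 UMIs) in nod2-/- and 36.9 CPM (1 UMI) in WT, and cldn15la had 2 UMIs in nod2-/- and 0 in WT. The acinar markers prss1 and prss59.1 were at 309 and 252 CPM in nod2-/- and 517 and 554 CPM in WT endothelial cells, and their part in these values was not tested.

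Stromal cells, which had UMIs of 12 of the 13 stromal marker genes in the files (lum was at 0), had few claudins. Over 58 nod2-/- cells there were 16 claudin UMIs (229 CPM, 131 to 373), 8 of them cldn11a in 2 cells. Over 22 WT cells there were 19 claudin UMIs (658 CPM, 396 to 1027), 13 of them cldni in 1 cell. The related fn1b/slit3 cells had 22 claudin UMIs in 76 nod2-/- cells and 5 in 39 WT cells. Neither class reached 20 UMIs for any claudin. The cldn11a and cldni values of stromal cells therefore rest on 2 cells and 1 cell.

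Among the stromal, fn1b/slit3 and krt15/rbp4 cells, 9 cells with both keratin RNA and cldni or cldnb were looked at singly, chosen after their values were seen. The krt15/rbp4 cells met the marker rule for keratin-rich epithelium, but came out of the stromal clusters with fn1b, rbp4 and podxl among their leading genes and were kept apart. In these cells, 41 UMIs of cldni and 29 UMIs of cldnb were found among 58 nod2-/- cells and 0 of either among 17 WT cells, and cldni came from 4 cells and cldnb from 3. Of these, 3 nod2-/- cells had 15, 13 and 12 UMIs of cldni with 2, 1 and 4 UMIs of cldn1 and no cldnb, and 1 WT cell of the stromal class had 13 UMIs of cldni with 1 UMI of cldn1. Another 3 nod2-/- cells had 23, 5 and 1 UMIs of cldnb with 5, 1 and 1 UMIs of cldna and no cldn1. The stromal and krt15/rbp4 cells described so far had krt5, a keratin of the basal skin layer, at 28 to 385 UMIs and krt15 at 52 to 879 UMIs. The rest of the 9 were nod2-/- fn1b/slit3 cells with less keratin RNA. Of them, 1 cell had 2 UMIs of cldni and no cldn1, with krt5 at 7 UMIs and krt15 at 1 UMI. Another had 2 UMIs of cldnb and no cldna, with krt5 at 2 UMIs and krt15 at 6 UMIs. The 4 cells with at least 10 cldni UMIs all had cldn1 and none had cldnb, while the cell with 23 cldnb UMIs also had 1 UMI of cldni. Of the 58 nod2-/- krt15/rbp4 cells 8 had a krt5 UMI, and of the 17 WT cells 0 did.

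cldni was also the main claudin RNA of leukocytes. It was at 205 CPM (179.9 to 233) in nod2-/- and 184 CPM (159.5 to 212) in WT, which is 76.3% and 72.0% of the claudin UMIs of this class. After thinning, 10.9% of 1085 nod2-/- leukocytes and 9.22% of 803 WT leukocytes had a cldni UMI (18.1% and 18.3% without thinning), against 0% and 0.0363% of enterocytes. In RefSeq cldni overlaps coro1a, a leukocyte actin regulator, and whether reads of the pair can be told apart is not known for these counts. Without cldni the claudins of leukocytes summed to 63.8 CPM in nod2-/- and 71.7 CPM in WT, against 269 and 256 CPM with it. coro1a was at 472 CPM in nod2-/- and 477 CPM in WT leukocytes.

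The 2 genes did not keep 1 ratio among leukocyte sub-clusters. Sub-cluster 11, with 6 nod2-/- and 13 WT cells, had more goblet than leukocyte markers among its leading genes and is shown with its parent cluster. In sub-cluster 2, led by rorc and ccl20a.3, cldni was at 312 CPM in nod2-/- and 371 CPM in WT and coro1a at 520.4 and 401.5 CPM, which is 0.701 UMIs of cldni for each UMI of coro1a over both libraries. In sub-cluster 6, led by blnk and sash1b, coro1a was at 868 CPM in nod2-/- and 1003 CPM in WT, but cldni had 0 UMIs in nod2-/- and 2 UMIs in WT, against 139 UMIs of coro1a over both libraries. In sub-cluster 5, led by mpeg1.1 and cd74a, cldni had 0 UMIs in nod2-/- and 1 UMI in WT, against 57 UMIs of coro1a. The ratio thus ran from 0 in sub-cluster 9 (28 cells) and 0.0144 in sub-cluster 6 to 0.707 in sub-cluster 0. The 4 keratin-bearing cells described above with 12 to 15 UMIs of cldni had 0 UMIs of coro1a.

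**Figure D4:**
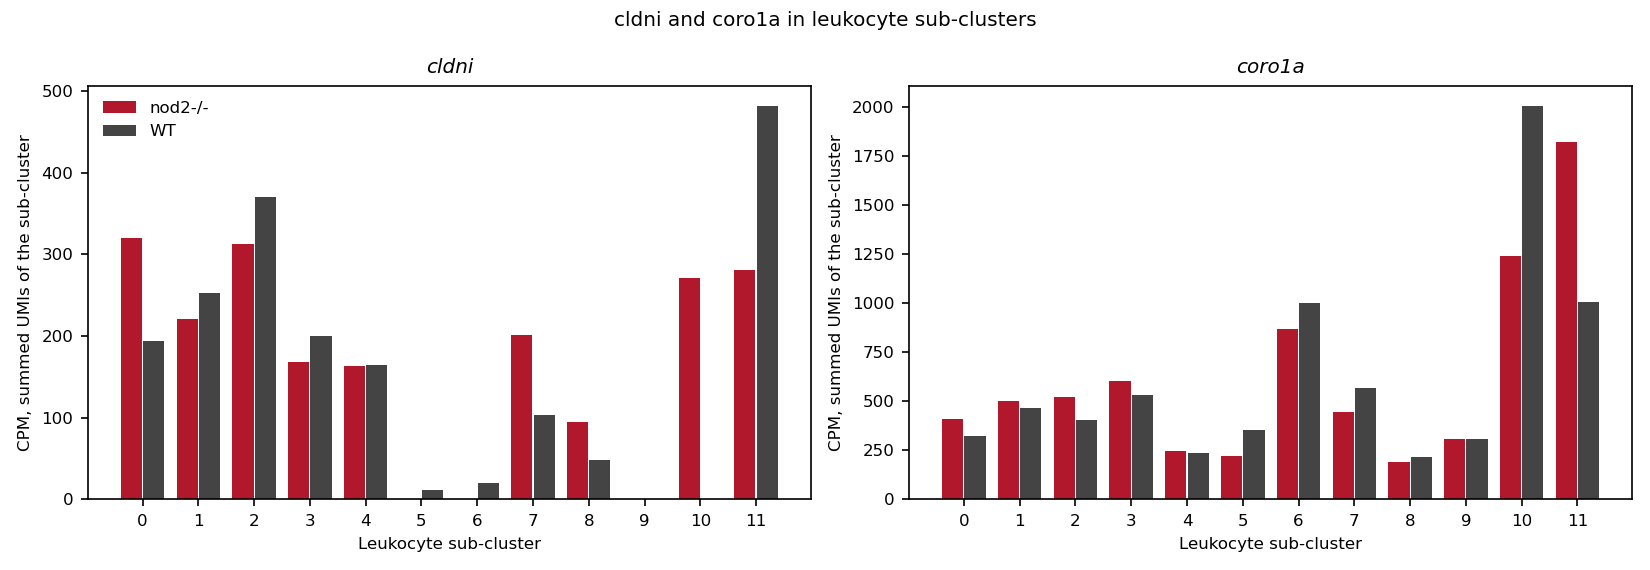
CPM (y axes, from 0) of cldni (left panel) and coro1a (right panel) in leukocyte sub-clusters 0 to 11 (x axes), with the nod2-/- bar in red left of the WT bar in grey. coro1a is present in all 12 sub-clusters, whereas cldni is at or near 0 in sub-clusters 5, 6 and 9, and at 0 in WT sub-cluster 10, which held 2 WT cells.

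Between the libraries most claudin levels lay within 2-fold of each other. Over the 14 classes, 79 pairs of a claudin and a class had at least 20 UMIs. Of these, 9 differed by at least 2-fold (11.4%), 1 of them higher and 8 lower in nod2-/-, against 12.0% of all pairs of a gene and a class (4.82% higher and 7.15% lower). The share of claudin pairs past 2-fold was therefore close to that of genes in general. In enterocytes 0 of 8 claudins differed by 2-fold, against 12.2% of 13156 genes. Their median log2 ratio was -0.30, and that of all genes tested was -0.22. cldn15la in enterocytes had a log2 ratio of -0.26 (-0.32 to -0.20), near that median, cldn15a had -0.11 (-0.21 to -0.01) and cldnc had -0.34 (-0.49 to -0.19). Under the filter of 200 to 2500 UMIs the value of cldn15la was -0.64, and those of cldn15a and cldnc turned to 0.43 and 0.22. With TMM factors, which rescale each library, cldn15a turned to 0.0709. In lysosome-rich enterocytes 3 of 10 claudins differed by 2-fold (8.03% of all genes) and in goblet cells 3 of 9 (12.4%), and their median log2 ratios were -0.41 and -0.51.

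cldn15lb was lower than the median of all genes in several nod2-/- classes. It was lower in nod2-/- enterocytes (44.7 against 73.2 CPM, log2 ratio -0.71, -0.86 to -0.56), lysosome-rich enterocytes (114 against 152 CPM, -0.42, -0.59 to -0.25), goblet cells (86.7 against 186 CPM, -1.10, -1.53 to -0.70) and keratin-rich cells (79.0 against 133 CPM, -0.75, -1.33 to -0.20). The medians over all genes in these classes were -0.22, -0.03, -0.10 and -0.13. In enterocytes its level was lower in nod2-/- in each of the 5 clusters, with log2 ratios from -1.09 in cluster 1 to -0.30 in cluster 3, where the interval ran from -1.42 to 0.77. Of the lysosome-rich enterocytes, cluster 5 was at -0.69 (-0.92 to -0.46) and cluster 8 at -0.09 (-0.35 to 0.17), so the total does not describe both. In cuzd1.1/spink4 cells cldn15lb was at -1.01 (-2.23 to 0.19), from 12 nod2-/- and 15 WT UMIs. In cycling cells cldn15lb was not lower in nod2-/-. Under the filter of 200 to 2500 UMIs, which left 2872 nod2-/- and 2252 WT cells, the log2 ratio of cldn15lb was -0.03 (-0.78 to 0.72) in enterocytes, 0.33 (-0.43 to 1.15) in lysosome-rich enterocytes and 0.10 (-0.85 to 0.99) in goblet cells, so no lower level was detectable among the shallower cells.

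cldn15b went in opposite directions in the absorptive classes. It was higher in nod2-/- lysosome-rich enterocytes (193 against 133 CPM, log2 ratio 0.54, 0.39 to 0.69), in both cluster 5 (0.50, 0.29 to 0.71) and cluster 8 (0.53, 0.31 to 0.74). It was lower in nod2-/- enterocytes (32.9 against 44.0 CPM, -0.42, -0.60 to -0.24), with -0.53 in cluster 0 and -0.70 in cluster 1 but 0.03 in cluster 4, so the total over enterocytes does not describe all of them. Under the filter of 200 to 2500 UMIs the log2 ratio was 0.43 (-0.11 to 0.99) in lysosome-rich enterocytes and 0.18 (-0.65 to 1.02) in enterocytes, and the difference between the classes was not tested. In the same lysosome-rich enterocytes cldn15a was lower in nod2-/- (148 against 221 CPM, -0.58, -0.73 to -0.43). The share of cldn15b among claudin UMIs of these cells was 19.1% (17.9 to 20.4) in nod2-/- and 12.4% (11.5 to 13.2) in WT, and that of cldn15a was 14.7% in nod2-/- and 20.6% in WT.

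**Figure D5:**
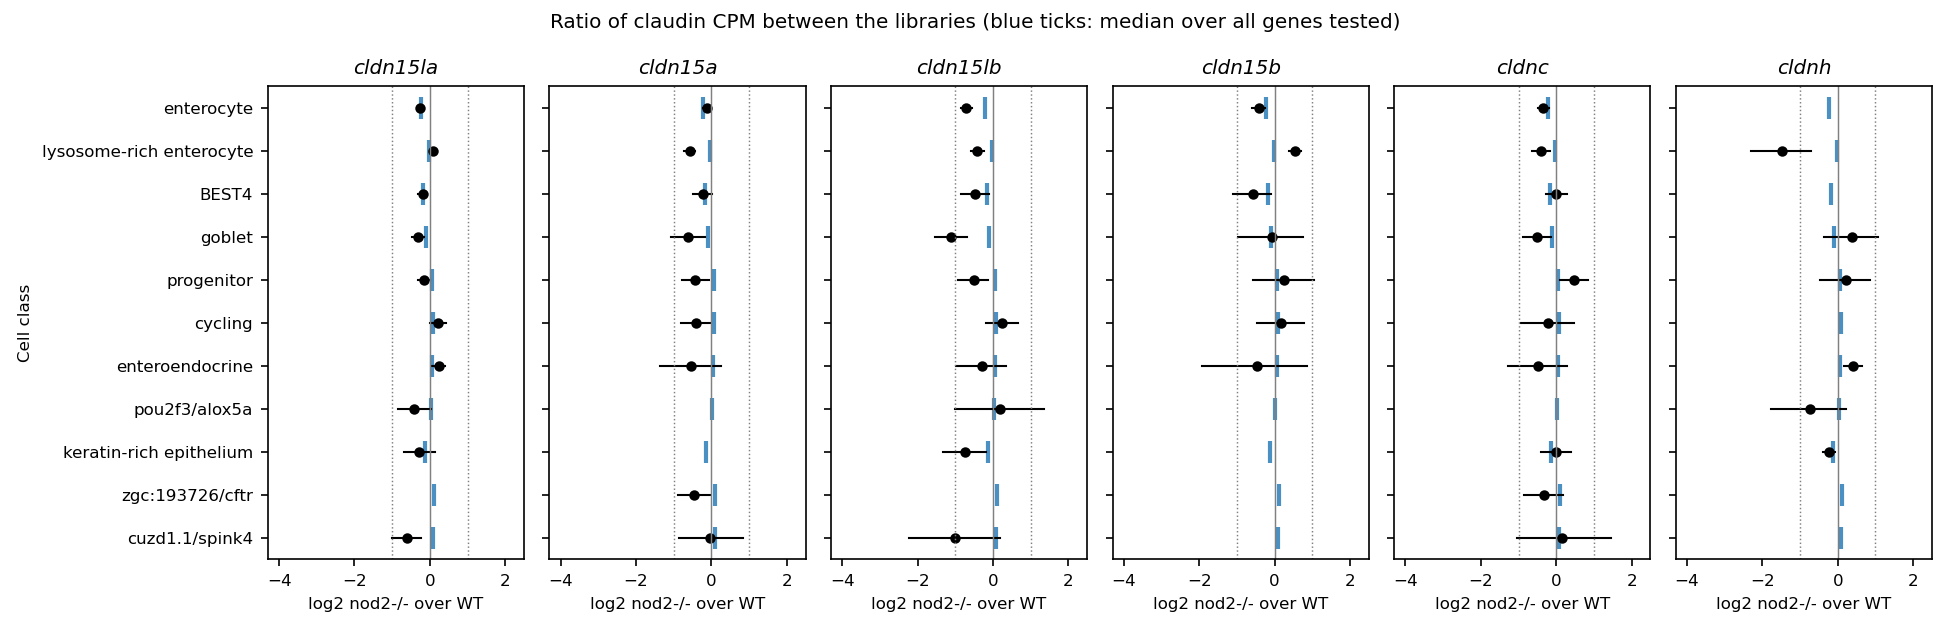
Log2 ratio of nod2-/- over WT CPM (x axes, points with exact conditional 95% intervals) of the 6 most abundant claudins in 11 epithelial classes (y axis), drawn where a pair had at least 20 UMIs, with blue ticks at the median over all genes tested in the class and dotted lines at 2-fold. cldn15lb in goblet cells, at -1.10, and in cuzd1.1/spink4 cells, at -1.01, and cldnh in lysosome-rich enterocytes, at -1.47, lie past 2-fold.

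Large ratios were found for cldnb and cldnh in classes where the nod2-/- library held few of their UMIs. In WT, zgc:193726/cftr cells were the highest of the 14 classes for cldnb, followed by keratin-rich cells at 183 CPM. In zgc:193726/cftr cells cldnb had 6 UMIs in nod2-/- (89.1 CPM) and 94 UMIs in WT (447 CPM), a log2 ratio of -2.33 (-3.81 to -1.15), where 30.2% of all genes tested differed by 2-fold. Of the 94 WT UMIs, 36 came from 1 cell and 21 from another, and the cell with 36 had 27469 UMIs in all, against a class median of 3128. Without the cell with most cldnb UMIs in each library the log2 ratio was -2.65. Markers of other epithelial cells were also higher in the WT cells of this class. The keratin-rich list had UMIs of 4 of its 8 markers there (anxa1c, cnfn, cyt1 and krt5 were at 0) and summed to 252.5 CPM in nod2-/- and 1447 CPM in WT, with krt91 at 1 UMI in nod2-/- and 202 UMIs in WT, of which the cells with 36 and 21 cldnb UMIs held 70 and 21. The enterocyte list had UMIs of 13 of its 14 markers (alpi.1 was at 0) and summed to 2198 CPM in nod2-/- and 9468 CPM in WT, with fabp2 at 193 and 1195 CPM. In the keratin-rich class the keratin list summed to 25476 and 22046 CPM, and in enterocytes the enterocyte list summed to 106166 and 83047 CPM. The part of these markers in the cldnb ratio was not tested. In lysosome-rich enterocytes cldnb had 4 UMIs in nod2-/- and 65 UMIs in 28 cells of WT, a log2 ratio of -3.51 (-5.43 to -2.08), and cldnh had 18 UMIs in nod2-/- and 71 in WT (-1.47, -2.30 to -0.71). Most of these lay in cluster 5, with cldnb at 3 UMIs in nod2-/- and 62 in WT and cldnh at 16 and 64. A single WT cell of cluster 5 held 17 UMIs of cldnh. In cluster 8 cldnb had 1 UMI in nod2-/- and 3 in WT, and cldnh had 2 and 7. The cluster 8 intervals were wide, from -6.9 to 2.5 for cldnb and from -4.7 to 1 for cldnh. In lysosome-rich enterocytes as a whole krt91 had 74 UMIs in nod2-/- and 274 UMIs in WT, the whole keratin-rich list (6 of 8 markers with UMIs, anxa1c and cyt1 at 0) summed to 1164 and 1394 CPM, and its part was not tested. Of the 14 WT cells of this class with 2 or more cldnb UMIs, 12 had no cldn15a UMI and 13 had cldn15la, while 56.9% of all WT cells of this class had cldn15a. The median of the 14 cells was 22766 UMIs, against 5477 UMIs for the class, and whether they hold RNA of more than 1 cell was not tested. The 1 pair higher in nod2-/- was cldn12 in goblet cells, with 11 UMIs in nod2-/- and 13 UMIs in WT (16.7 against 6.50 CPM).

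Other genes of the apical junction were described from a list of 56 symbols without claudins, which matched 51 genes, 48 of them with at least 20 UMIs. Over the same 14 classes, which leave out endothelial cells for their 14 WT cells, the zgc:193726/cftr cells were the highest class in both libraries for 17 of the 48, against 3.72% of the 17435 genes. At least 1 of the 17, crb3b (39 UMIs in all cells), reached the limit of 20 UMIs only with its UMIs of this class. The count of 17 therefore follows in part from that limit. Of these 17, jam2a was higher in endothelial cells of each library (227.9 CPM in nod2-/- and 110.7 CPM in WT) than in zgc:193726/cftr cells (74.3 and 33.3 CPM), and tjp3 was so in WT (332.1 against 252.3 CPM). Among the 17 were also cdh1, the E-cadherin of epithelial cells (2213 CPM in nod2-/- and 1128 CPM in WT), the scaffold gene magi1b (1693 and 838 CPM), the ZO-1 gene tjp1b (594 and 167 CPM) and the junction receptor gene cxadr (817 and 290.4 CPM). For 4 of the 19 claudins (cldn7b, cldn15a, cldnc and cldnk) the same class was highest in both libraries. In nod2-/- cldn7b led narrowly, at 104 CPM (7 UMIs) against 101.5 CPM in keratin-rich cells, and cldnk was found in only 3 zgc:193726/cftr cells. The zgc:193726/cftr class was small, with 67330 UMIs in nod2-/- and 210079 UMIs in WT. By the 4-fold rule, 4 of the 48 genes (crb3b, igsf5b, jam2a and oclnb) were concentrated in 1 class, against 5.95% of the 17435 genes. For crb3b, igsf5b and jam2a that class was the zgc:193726/cftr cells. The call of jam2a holds only because endothelial cells, which had more of it, are not among the 14 classes. Both crb3b and oclnb reached the limit of 20 UMIs only with the UMIs of their class, so the count of 4 follows in part from that limit. Of the occludin genes, oclnb was 1 of the 4, in keratin-rich cells (79.0 CPM in nod2-/- and 94.7 CPM in WT), with 0.0824 CPM in nod2-/- and 0.11 CPM in WT enterocytes. oclnb had 111 UMIs in all cells and reached the limit of 20 UMIs only with those of the keratin-rich class, so its call follows from that limit. Its paralog oclna was as high in keratin-rich cells (97.8 CPM in nod2-/- and 104.7 CPM in WT) and was also found in zgc:193726/cftr cells (148.5 and 95.2 CPM) and in enterocytes (32.6 and 40.1 CPM). In enterocytes 37 genes of the list could be compared, of which 0 were higher and 2 were lower in nod2-/- by at least 2-fold, with a median log2 ratio of -0.30. The 2 genes were ildr1a, of tricellular junctions (-1.45), and the scaffold gene magi1a (-1.34). The background was 3.08% of genes higher and 9.1% lower, so neither the list nor the claudins stood apart from other genes of enterocytes by this count.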

How the data were processed

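Whole adult intestines were profiled with the 10x Genomics 3′ v3.1 chemistry, with 1 library for each genotype. The authors deposited raw UMI counts per gene and cell, without normalization, made with Cell Ranger 7.0.1 on GRCz11 per the submitters' processing notes. All 11490 deposited cells were kept (at least 500 UMIs each). The methods word a filter of 200 to 2500 UMIs and at most 25% mitochondrial UMIs, which keeps 5124 cells and was run as an alternative. The libraries shared 10 cell barcodes. Scrublet in scanpy 1.11.5 called 0 doublets, so it did not work here, none were removed, and removal of the cells above the 95th percentile of its score was an alternative.

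Cells were integrated and clustered with Seurat 5.3.0 in R 4.3.3 (1988 variable genes after leaving out claudins, 50 principal components, resolution 0.8) into 30 clusters. Stromal and leukocyte clusters were reclustered alone (20 components). A cluster was named from at least 3 markers that made up at least 50% of a list, unless leading genes went against it, and otherwise by its leading genes. For leukocytes the share was taken over a core of the list, namely ptprc, coro1a, lcp1, cxcr4b, laptm5, spi1b and wasb. In 2 cases the naming rule was not followed. A stromal sub-cluster that met the rule for keratin-rich epithelium was called krt15/rbp4, and leukocyte sub-cluster 11, left unnamed by the rule, kept the class of its parent cluster. The naming rule and the choice of clusters to recluster were set after the clusters were seen. The members and gene lists were chosen with earlier results of these data known. Members with at least 100 UMIs in all cells, or at least 20 in 1 named class, are described by name, with others where stated.

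UMIs were summed by class and library. Ratios use genes with at least 20 UMIs over both libraries, and 2-fold stands in for a test. Shares of cells were taken after thinning each cell to 500 UMIs, with exact Clopper-Pearson intervals. Python 3.11.15, scipy 1.17.1 and edgeR 4.0.16 (TMM factors, an alternative) were used. The interval code was tested on simulated counts. RefSeq (GRCz12tu) gave names and neighbors only. No sequences are printed, since none of the build of the files was used here.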

Additional observations from a re-analysis of the deposited data

Results flagged for a closer look

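The values below are log2 ratios of nod2-/- over WT CPM. They were picked out because the same claudin lay above 0 in 1 class and below 0 in another, with both counting intervals clear of 0 and of the median over all genes of the class. The difference between classes was not tested, each ratio rests on 1 library for each genotype, and none has a replicate check.

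cldn15b was at 0.54 in lysosome-rich enterocytes and -0.42 in enterocytes, and the enterocyte value turned to 0.18 under the filter of 200 to 2500 UMIs. cldn15la was at 0.0907 in lysosome-rich enterocytes and 0.24 in enteroendocrine cells, against -0.31 in goblet cells, -0.16 in progenitors and -0.61 in cuzd1.1/spink4 cells. Under that filter 4 of these 5 values changed sign, to -0.18 in lysosome-rich enterocytes, 0.47 in goblet cells, 0.15 in progenitors and 0.76 in cuzd1.1/spink4 cells, and as a mean over cells the values of lysosome-rich enterocytes (-0.0156) and goblet cells (0.0085) did. cldnc was at 0.47 in progenitors, against -0.40 in lysosome-rich enterocytes and -0.51 in goblet cells, and the goblet value turned to 1.12 under the filter and to 0.31 as a mean over cells. cldnh was at 0.41 in enteroendocrine cells and -1.47 in lysosome-rich enterocytes. cldnb was at 0.53 in keratin-rich cells, against -3.51 in lysosome-rich enterocytes and -2.33 in zgc:193726/cftr cells. The values of cldnh and cldnb in lysosome-rich enterocytes rest mostly on cluster 5, since cluster 8 held few of their UMIs.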

How the results depend on the processing

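No paired analysis was possible because each genotype has 1 library, and for the same reason no library could be left out. Of 493 alternative log2 ratios for claudins in a class, 438 stayed inside the counting interval of the reported value, 34 left it on the same side of 0 and 21 changed sign. Of those outside it, the filter of 200 to 2500 UMIs gave 33, the mean over cells 13 and TMM factors 9, and the clustering, mitochondrial and doublet alternatives gave 0. The cause was not tested. Genes with few UMIs limit every ratio beyond the 6 most abundant claudins.

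The ratio of cldn15la in enterocytes was -0.64 under the filter, -0.0774 with TMM factors, which shifted every gene of that class by 0.18 (by -0.57 to 0.47 over the classes), and -0.37 as a mean over cells. The summed ratio of enterocytes was -0.23 under the filter. The count of concentrated claudins was 1 under the filter, 7 at 2-fold and 1 at 8-fold. The 2-fold count was 99 with at least 1 UMI and 5 with at least 50 UMIs. Claudins with at least 20 UMIs numbered 12 under the filter, and 30 had at least 1 UMI.

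Sign changes under the filter were as follows. In enterocytes cldn15a was 0.43, cldn15b 0.18 and cldnc 0.22. In lysosome-rich enterocytes cldn15la was -0.18 and cldn15lb 0.33. In goblet cells cldn15la was 0.47, cldn15lb 0.10 and cldnc 1.12. cldn15la was 0.13 in BEST4 cells, 0.15 in progenitors, -1.26 in cycling cells and 0.76 in cuzd1.1/spink4 cells, and cldn15a was 1.55 in cycling cells. The summed ratio was 0.14 in BEST4, 0.58 in goblet and 0.67 in cuzd1.1/spink4 cells. With TMM factors cldn15a in enterocytes was 0.0709. As a mean over cells cldn15la was -0.0156 in lysosome-rich enterocytes, 0.0085 in goblet cells and -0.0463 in cycling cells, and cldnc was 0.31 in goblet cells.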
